A study of Bos taurus with 20 samples.

Results

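TMEM54, EFNA3, CEACAM19 and SERPINB8 were examined as a group of 4 genes, taken by their Ensembl identifiers (ENSBTAG00000008331, ENSBTAG00000033423, ENSBTAG00000015313 and ENSBTAG00000001207) from the 24616 genes listed for every library. The series holds RNA-seq of rumen papillae from 20 Hereford x Aberdeen Angus hybrid steers, with 1 library per steer and none pooled. All steers were kept in a feedlot on the same finishing diet of barley, oats and alfalfa with a supplement that contained Rumensin, and the tissue came from the ventral sac after slaughter. Age at slaughter is not given in the sources used here. The study asked how the rumen epithelium of feed-efficient steers (low residual feed intake, RFI) differs from that of inefficient steers (high RFI). The sample labels call 9 steers Low RFI and 11 High RFI, and these groups were used throughout. In the labels, steers numbered 11 to 205 are all High RFI and steers numbered 219 to 455 are all Low RFI. The labelled group therefore cannot be told apart from the order of steer numbers. The study's own list of animals gives the opposite group for 6 of the 20 steers and does not name 2 of them. The comparison of the groups over all libraries was therefore repeated with that list. Which of these sources is right was not tested. A code in the column headers, which neither the labels nor the paper explains, divides the libraries by a pair of digits inside it into 3 sets, called here 01 (8 libraries), 03 (6 libraries) and 12 (6 libraries). The first letter of the code follows the steer numbers, with A up to steer 155, B from steer 201 and C from steer 451. All of these genes are on the study's list of genes that differed between the RFI groups. Since that list was chosen on samples of these steers, it is not independent evidence of any direction here.

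TMEM54 encodes a small protein that spans the membrane several times and whose function is little known. EFNA3 encodes ephrin-A3, a ligand held in the outer membrane by a lipid anchor, which signals to Eph receptors on neighbouring cells and so takes part in cell positioning and contact. CEACAM19 belongs to the carcinoembryonic antigen family of immunoglobulin-like surface proteins, several of which act in adhesion between epithelial cells. SERPINB8 belongs to the clade B serpins, inhibitors of serine proteases that lack a classical secretion signal and act largely inside the cell. The rumen wall is lined by a stratified squamous epithelium, in which cells move from a basal layer marked by keratin 14 towards a cornified surface, held together by desmosomes.

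The values are CPM, the reads on a gene scaled to a common total of reads per library, and from them whole reads were recovered. Each library had between 9622534 and 13960297 reads on genes. Between 16165 and 17657 genes had at least 1 read per library. For tests, CPM were scaled by TMM factors, which correct for differences in RNA composition and lay between 0.69 (steer 47) and 1.145. The labelled tissue was checked against 4 keratinocyte markers, and these were near the bottom of the range of expression. KRT14, the keratin of the basal layer, had between 0 and 1.64 CPM over the 20 libraries after scaling. ZNF750, a transcription factor of keratinocyte differentiation, had between 0 and 0.556 CPM, and PKP1, a desmosomal plakophilin, between 0.0897 and 0.77 CPM. LYPD3, a keratinocyte surface protein, was the highest of these markers with between 2.7 and 8.99 CPM, and it was the only one of the 4 that passed the filter on low counts. By comparison, MYL9, a myosin light chain of smooth muscle, had between 231 and 655 CPM, and KDR, a receptor of endothelial cells, between 18.3 and 61 CPM. Some other genes of epithelia were well above the levels of the 4 keratinocyte markers. Means were 28.4 CPM for PKP3, a plakophilin of desmosomes, 23.7 CPM for RAB25, a small GTPase of epithelial vesicle recycling, and 68.5 CPM for MALL, a membrane protein. KRT14, PKP1 and ZNF750 were thus close to absent, while PKP3, RAB25 and MALL were expressed. Of the other genes on the epithelial list examined below, S100A11, LLGL2 and ADAM15 had means of 75.8, 29.8 and 24.2 CPM. SCNN1A and LY6G6C, however, had means of only 2.39 and 0.0429 CPM. Apart from the 4 keratinocyte markers, the genes of that list were not chosen as markers of a cell type. Their levels do not measure the share of epithelial cells. In whole-tissue RNA, fewer cells of a type and less RNA per cell cannot be told apart.

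TMEM54 was the best measured of the 4 genes, with 7026 reads in all. The libraries had from 225 reads (steer 33) through a median of 301.5 to 751 reads (steer 51), or from 19.5 through 27.4 to 62.6 CPM as deposited. The exact Poisson interval (95%) of the highest library was 58.2 to 67.2 CPM and that of the next, steer 55, was 41.3 to 49.1 CPM, so these libraries differed by more than counting error. Intervals of this kind cover counting error only. SERPINB8 came next with 1654 reads, between 47 reads (steer 451) and 182 reads (steer 47) per library around a median of 72. As deposited, its level was between 3.87 and 17.6 CPM with a median of 6.14. The library of steer 47 had 17.6 CPM (exact Poisson interval 15.2 to 20.4), and the next highest, that of steer 155, had 11.7 CPM (9.83 to 13.8).

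EFNA3 was measured with few reads, 351 in all libraries together. The lowest library had 9 reads, the median was 14.5 and the highest, steer 51, had 46 reads. On the CPM scale as deposited, EFNA3 had 3.83 CPM in steer 51 (exact Poisson interval 2.81 to 5.11) and 2.17 CPM in the next library, steer 33 (1.4 to 3.2). Steer 51 thus had the highest level of both EFNA3 and TMEM54. CEACAM19 had only 147 reads, between 3 and 14 per library with a median of 7.5. Its lowest library, steer 33, had 0.26 CPM (exact Poisson interval 0.0537 to 0.761) and its highest, steer 23, 1.04 CPM (0.571 to 1.75), and these intervals overlap. A count of 0 would allow up to 3 reads, and 2 libraries of CEACAM19 were at just that number of reads. CEACAM19 did not pass the filter on low counts, so 3 of the 4 genes entered the tests over 14293 genes. It was tested instead in a fit over all 20064 genes with at least 1 read.

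**Figure D1:**
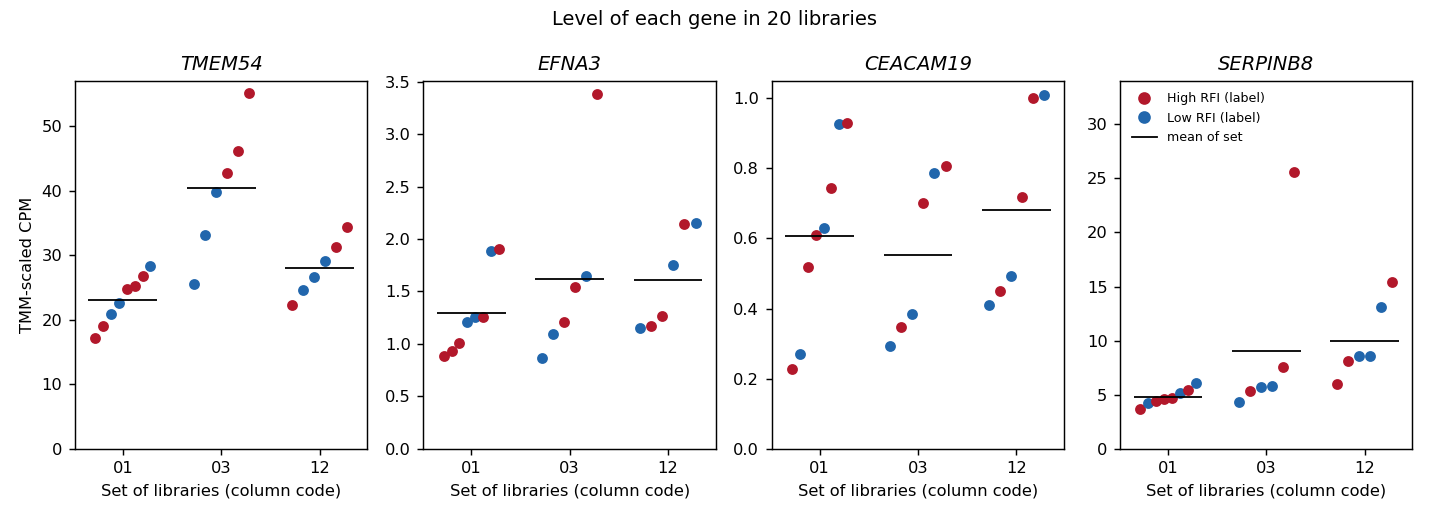
Level of TMEM54, EFNA3, CEACAM19 and SERPINB8 in TMM-scaled CPM (vertical axes, starting at 0 and different for each gene) in each of 20 libraries, placed by code set and coloured by the RFI label. Black lines are means of a set. TMEM54 is highest in set 03, SERPINB8 has 1 library (steer 47) far above the rest of set 03, and red and blue points are mixed for all genes in sets 01 and 12.

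The genes differed in how much of their spread came from counting reads. On the log2(CPM + 1) scale, the standard deviation of TMEM54 over the 20 libraries was 0.419, of which counting reads gave 0.077, or 3.42% of the variance. For SERPINB8 the standard deviation was 0.632, and counting gave 5.08% of the variance. For EFNA3 it was 0.309 with 44.7% from counting, and for CEACAM19 0.226 with 78.2% from counting. The variance of the reads divided by that expected from counting alone was 39.5 for TMEM54, 32.6 for SERPINB8, 3.14 for EFNA3 and 1.22 for CEACAM19. The differences of CEACAM19 between steers were thus hardly larger than counting alone gives. Among the genes tested, 75.8% had a smaller standard deviation than SERPINB8 and 52.1% a smaller one than TMEM54. At the mean of SERPINB8 the smoothed standard deviation of all genes tested was 0.579, close to that of SERPINB8 itself. TMEM54 lay below the smoothed value of 0.483 at its mean, and EFNA3 below the value of 0.447 at its mean.

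**Figure D2:**
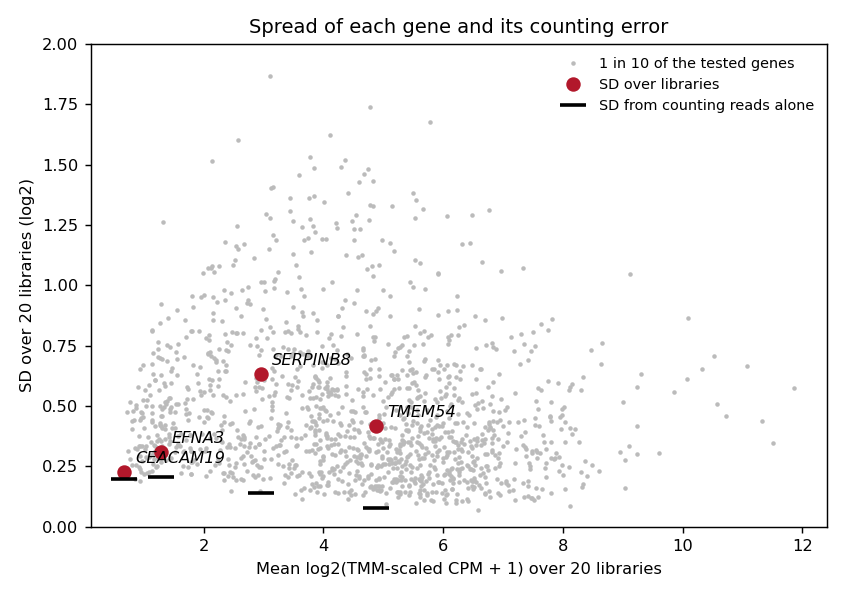
Standard deviation over 20 libraries (vertical axis, log2 scale) against mean log2(TMM-scaled CPM + 1) (horizontal axis). Red points are the 4 genes, black dashes the standard deviation that counting reads alone would give them, and grey points 1 in 10 of the genes tested. The dash lies just under the point for CEACAM19 (0.2 against 0.226) and far under it for TMEM54 (0.077 against 0.419).

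None of the 4 genes differed between Low and High RFI steers by more than the spread within the groups. TMEM54 had between 20.9 and 39.8 TMM-scaled CPM in the 9 Low RFI libraries (median 26.6) and between 17.1 and 55.1 in the 11 High RFI libraries (median 26.8). Its log2 difference, Low minus High, was -0.10 with a standard error of 0.19 and a 95% interval of -0.49 to 0.29 (limma, adjusted p = 1). EFNA3 had a median of 1.26 TMM-scaled CPM in either group, with a highest value of 2.15 in Low and of 3.38 in High RFI libraries. Its log2 difference was -0.02 with a 95% interval of -0.32 to 0.28 (limma, adjusted p = 1). CEACAM19 had between 0.269 and 1.01 CPM in Low RFI (median 0.494) and between 0.228 and 1.00 CPM in High RFI libraries (median 0.702). The log2 difference of CEACAM19 was -0.06 with a 95% interval of -0.27 to 0.15 (limma, adjusted p = 1). For SERPINB8 the range was 4.21 to 13.1 CPM in Low RFI (median 5.78) and 3.67 to 25.6 CPM in High RFI libraries (median 5.41). Its log2 difference was -0.09 with a 95% interval of -0.67 to 0.50 (limma, adjusted p = 1). The groups overlapped almost wholly for each gene.

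Exact two-sided permutation tests over all 167960 assignments of 9 libraries to Low RFI gave p = 0.601 for TMEM54, 0.921 for EFNA3, 0.554 for CEACAM19 and 0.787 for SERPINB8. Over all genes tested, 0% were called between the groups (0 of 14293 with limma, 110 at an unadjusted p below 0.05). Those 110 are 0.77% of the genes, below the share of 0.05 expected if no gene differed. In this fit the spread within groups includes the differences among the sets. With the code set as a covariate, limma called 0 genes (287 unadjusted). The log2 differences were then -0.168 for TMEM54, -0.038 for EFNA3, -0.064 for CEACAM19 and -0.177 for SERPINB8 (limma, adjusted p between 0.958 and 0.977). With the recovered reads and no covariate, edgeR's quasi-likelihood test called 0 of the 14293 genes (163 unadjusted). DESeq2 was run on all 20064 genes with at least 1 read and called 0 of them (316 unadjusted). With the groups of the study's own list, 18 steers, the log2 differences were -0.193 for TMEM54, -0.105 for EFNA3, -0.067 for CEACAM19 and 0.060 for SERPINB8, each with an adjusted p of 1 in limma. Over all genes tested, 0 were called with these groups (63 unadjusted). The study itself, with DESeq2 on 18 steers and an adjusted p below 0.05, reported genes that differed, these 4 among them. The sign of SERPINB8 varied with the steers used. Without the library of steer 47, which is labelled High RFI and listed by the study as Low RFI, its difference was 0.084, and over the 12 steers with the same group in both sources it was -0.112 (limma, adjusted p = 1). The intervals above do not reach a doubling or a halving for any of the 4 genes on this scale, on which a change in a gene with few reads appears smaller than it is.

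The comparison was also made within each set of libraries. TMEM54 differed by 0.09 in set 01 (3 Low against 5 High RFI, exact permutation p = 0.679), by -0.55 in set 03 (3 against 3, exact permutation p = 0.1) and by -0.11 in set 12 (3 against 3, exact permutation p = 0.7). In set 03 the 3 High RFI libraries, with 42.7, 46.1 and 55.1 CPM, all lay above the 3 Low RFI libraries, with 25.6, 33.1 and 39.8 CPM. The value p = 0.1 is the smallest that this exact test of 3 against 3 can give, and a gene separates in this way by chance with that probability. The share of all genes tested that separated in set 03 was not counted. Low and High RFI ranges overlapped for TMEM54 in sets 01 and 12, and for the other genes in every set. The study lists steer 47, the library with 42.7 CPM, as Low RFI and does not name steer 281, the library with 25.6 CPM. The test of whether the group difference depends on the set did not pass for any of the 4 genes (limma, adjusted p between 0.804 and 0.957). EFNA3 differed by 0.16, -0.42 and 0.09 in sets 01, 03 and 12, and SERPINB8 by 0.15, -0.86 and 0.10. The corresponding exact permutation p-values were 0.429, 0.3 and 0.9 for EFNA3 and 0.321, 0.3 and 0.8 for SERPINB8. For CEACAM19 they were 1, 0.7 and 0.8 (exact permutation tests), with differences no larger than 0.12 in size. The smallest p that the design allows in set 01 is 0.0179. In set 03 the High RFI libraries had 3.38 (steer 51), 1.54 and 1.21 TMM-scaled CPM of EFNA3. For SERPINB8 they had 25.6 (steer 47), 7.54 and 5.36 CPM. The differences of these genes in set 03 thus rested largely on their highest library, which for SERPINB8 is the steer listed by the study as Low RFI. The comparison within sets was not repeated with the study's list.

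TMEM54 and SERPINB8 differed among the 3 sets of libraries, each in its own pattern, while no difference of EFNA3 or CEACAM19 was detectable at their depth. TMEM54 was highest in set 03, with 40.4 ± 10.3 TMM-scaled CPM (SD, n = 6), against 28.03 ± 4.44 in set 12 (n = 6) and 23.1 ± 3.85 in set 01 (n = 8). The 6 libraries of set 03 ranged from 25.6 to 55.1 CPM, those of set 12 from 22.3 to 34.4 and those of set 01 from 17.1 to 28.3. Set 03 overlapped with set 01 only through the library of steer 281. In the test over the 3 sets TMEM54 had an adjusted p of 0.00947 (limma, F test with the RFI label in the model). That test called 54.5% of all genes tested, so a call in it says little about a single gene. SERPINB8 was highest in set 12, with 9.96 ± 3.55 CPM (SD, n = 6), against 4.77 ± 0.756 in set 01 (n = 8). Set 03 had 9.05 ± 8.15 CPM (n = 6), of which steer 47 alone had 25.6 and the other libraries between 4.30 and 7.54. SERPINB8 had an adjusted p of 0.0321 in the same F test of limma.

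Taken pair by pair, TMEM54 rose from set 01 to set 03 by 0.78 on the log2 scale (standard error 0.15, 95% interval 0.46 to 1.09, adjusted p = 0.0296, limma), a ratio of 1.72 in CPM + 1. In that comparison 0.518% of the genes tested were called, 0.336% higher and 0.182% lower in set 03. TMEM54 was thus among a small number of genes called. That number itself depended on single libraries, with 74 genes called in all libraries, 20 without steer 11 and 247 without steer 281. A rise of this size was not particular to TMEM54. On the epithelial list described below, RAB25 rose by 0.89 and SCNN1A by 0.84, and LYPD3 rose least, by 0.26. None of these was called (adjusted p = 0.0526, 0.145 and 0.253, limma). The call of TMEM54 was near the threshold. When each of the 20 libraries was left out in turn, the difference stayed between 0.69 and 0.87, but the adjusted p lay between 0.00873 and 0.0847 and the call was lost in 8 of the 20 cases (limma). These were the cases without steers 11, 23, 33, 205 and 455 of set 01 and without steers 47, 55 and 299 of set 03. It was also lost with CPM as deposited, where the difference was 0.63 (adjusted p = 0.0651, limma). Set 12 and set 01 did not differ beyond their spread for TMEM54 (0.29, 95% interval -0.02 to 0.61, adjusted p = 0.0957, limma). Set 12 minus set 03 was -0.49 (95% interval -0.82 to -0.15), which did not pass after adjustment (adjusted p = 0.132, limma).

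SERPINB8 rose from set 01 to set 12 by 0.90 on the log2 scale (standard error 0.28, 95% interval 0.31 to 1.49, adjusted p = 0.0116, limma), a ratio of 1.86 in CPM + 1. All libraries of set 12 but that of steer 115 lay above the highest library of set 01, 6.07 CPM. However, 63% of all genes tested were called between these sets and 30.9% were called higher and 32.1% lower in set 12, so the rise of SERPINB8 was shared with a large part of the transcriptome. Left out in turn, no single library ended this call (adjusted p between 0.000611 and 0.0417, limma), whereas the F test over the 3 sets was lost in 7 of 20 cases (adjusted p up to 0.0848, limma). These were the cases without steers 11, 23, 155, 201, 205, 317 and 345. The differences of SERPINB8 between sets 03 and 01 (0.57, adjusted p = 0.204, limma) and between sets 12 and 03 (0.33, adjusted p = 0.449, limma) did not pass. MYL9 also rose from set 01 to set 12, by 0.84 (adjusted p = 0.00289, limma), from 231 to 398 CPM in set 01 to 445 to 655 CPM in set 12, while KDR fell by 0.56 (adjusted p = 0.047, limma). The summed CPM of the 4 keratinocyte markers were between 3.8 and 6.23 in set 01, between 3.36 and 9.83 in set 03 and between 3.46 and 7.48 in set 12, and none of the 4 was at 0 in all libraries of a set. The part of these cell types in the rise of SERPINB8 was not tested.

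For EFNA3 the set means were 1.29 ± 0.4 (set 01), 1.62 ± 0.906 (set 03) and 1.61 ± 0.471 TMM-scaled CPM (set 12), with SD over 8, 6 and 6 libraries. The mean of set 03 includes the 3.38 CPM of steer 51, and the other libraries of that set had between 0.867 and 1.65. The adjusted p of EFNA3 over the 3 sets was 0.558 (limma), and the 95% interval of set 12 minus set 01 was -0.18 to 0.55. CEACAM19 had 0.608 ± 0.265, 0.553 ± 0.237 and 0.681 ± 0.274 CPM in sets 01, 03 and 12. Its adjusted p was 0.757 (limma, fit over all genes with a read, in which 37.3% of the genes were called).

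**Figure D3:**
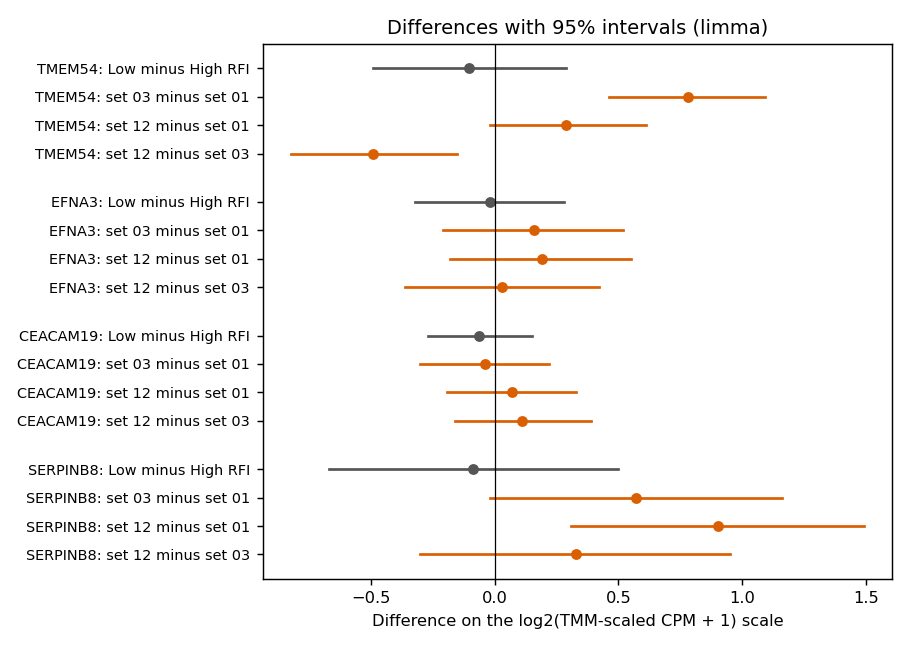
Differences on the log2(TMM-scaled CPM + 1) scale (horizontal axis) with 95% intervals from limma, for Low minus High RFI (grey) and between sets of libraries (orange), for each of the 4 genes. All 4 grey intervals cover 0, and the intervals that lie wholly on one side of 0 are those of TMEM54 for set 03 against sets 01 and 12 and that of SERPINB8 for set 12 against set 01.

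No covariation of the 4 genes was detected across the 20 libraries. All 6 pairs had a Pearson r between 0.04 and 0.37, and none passed after Benjamini-Hochberg adjustment over the pairs (adjusted p between 0.251 and 0.88, two-sided permutation tests). For TMEM54 and EFNA3, r was 0.37 (permutation p = 0.105, Spearman's rho = 0.25 with p = 0.275, n = 20). It was 0.11 without steers 51 and 55, the libraries farthest from the median of TMEM54, and 0.06 without steer 51 alone. The relation of this pair therefore rests on the library in which both genes were highest. EFNA3 and SERPINB8 had r = 0.37 (permutation p = 0.112) and rho = 0.48 (permutation p = 0.0338, 0.203 after adjustment), and r = 0.51 without steers 51 and 345. With CPM as deposited r of this pair was 0.06, and with the first principal component of all other genes taken out it was 0.18. TMEM54 and SERPINB8 had r = 0.35 (permutation p = 0.126) and rho = 0.27 (permutation p = 0.253), and r = 0.52 without steers 51 and 55. With CPM as deposited, the same pair had r = -0.07, so its sign depends on the scaling.

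CEACAM19 was the least related to the others. Its r was 0.20 with TMEM54 (permutation p = 0.4, rho = 0.19 with p = 0.427), 0.04 with EFNA3 (permutation p = 0.88, rho = 0.03 with p = 0.891) and 0.04 with SERPINB8 (permutation p = 0.857, rho = 0.1 with p = 0.674). Without the 2 libraries farthest from the median of the gene named first in each pair, these were 0.28, -0.04 and -0.09. Since most of the variance of CEACAM19 came from counting, a relation to the other genes would be hard to see at this depth.

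Within the sets of libraries the pairs went in different directions. TMEM54 and EFNA3 had r = -0.61 in set 01 (n = 8), 0.82 in set 03 (n = 6) and 0.44 in set 12 (n = 6), with exact permutation p = 0.112, 0.0514 and 0.378. TMEM54 and SERPINB8 had r = -0.45, 0.22 and 0.56 in the same order (exact permutation p = 0.259, 0.628 and 0.263). TMEM54 and CEACAM19 had 0.56, 0.58 and 0.1 (exact permutation p = 0.148, 0.256 and 0.844). EFNA3 and SERPINB8 had r = 0.79 in set 01 and 0.88 in set 12 (exact permutation p = 0.0191 and 0.0222), but -0.01 in set 03 (exact permutation p = 0.981). For EFNA3 and CEACAM19 r was -0.53, 0.78 and -0.4 (exact permutation p = 0.168, 0.0319 and 0.392), and for CEACAM19 and SERPINB8 it was 0.04, 0.31 and -0.63 (exact permutation p = 0.914, 0.781 and 0.2). Over these 18 values the smallest adjusted p was 0.192 (exact permutation tests, Benjamini-Hochberg). With the values centred within sets, r over the 20 libraries was between -0.01 and 0.44 for the 6 pairs.

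**Figure D4:**
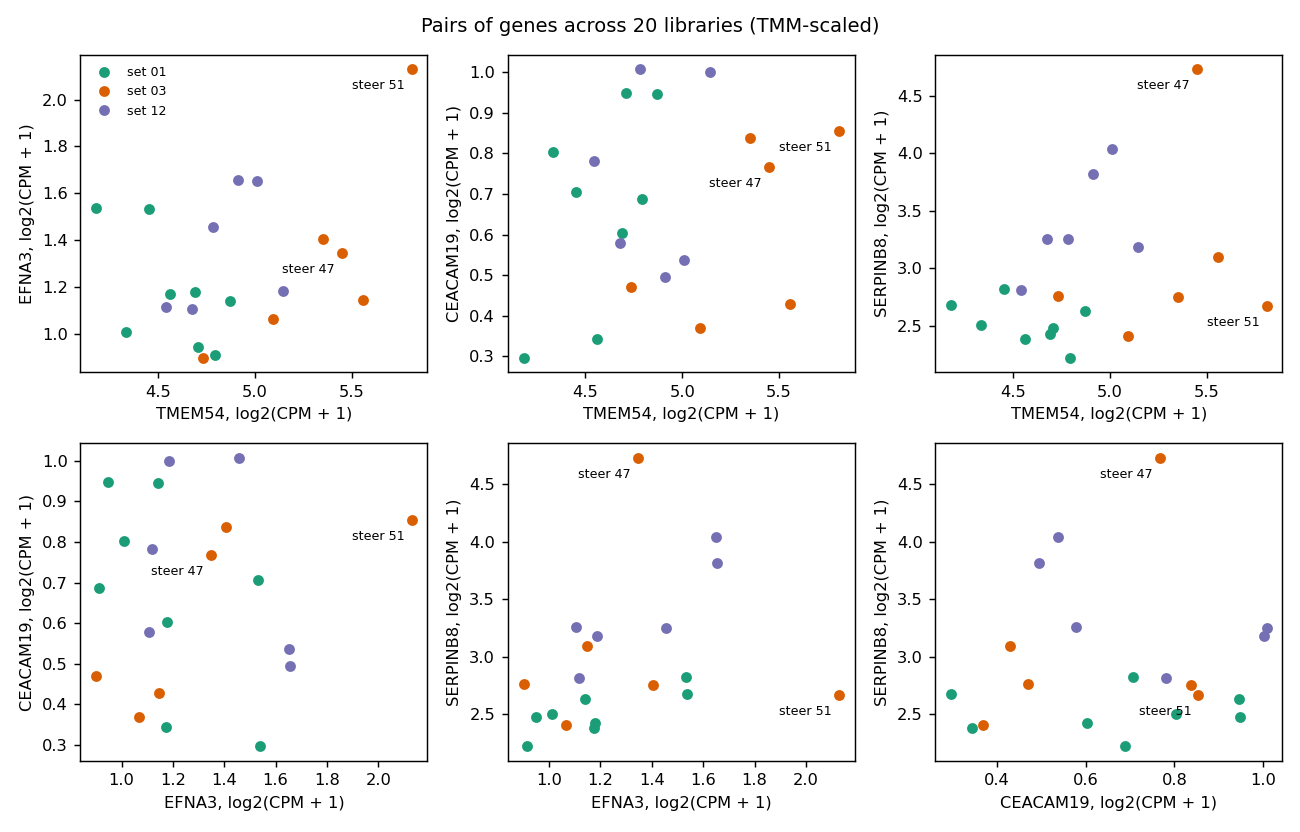
Each of the 6 pairs of genes across 20 libraries, both axes in log2(TMM-scaled CPM + 1), with points coloured by set and steers 47 and 51 marked. Steer 51 stands alone at the top right for TMEM54 and EFNA3 (r = 0.37 with it and 0.06 without it), and steer 47 stands above all other libraries for SERPINB8.

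SERPINB8 stood apart from the other 3 genes in its relation to the main axis of variation. The first principal component of all other genes tested held 76.7% of their variance, and the median size of r with it was 0.83 over the genes tested. The component rose as the TMM factor fell (r = -0.98). SERPINB8 had r = 0.91 with it (permutation p = 1e-05, the smallest that 100000 permutations can give, 4e-05 adjusted over the 4 genes, rho = 0.77 with p = 0.00014, n = 20). Without steers 47 and 155, the libraries with the most extreme scores, r was 0.84. With the CPM of SERPINB8 as deposited, r was 0.86, against -0.09 for TMEM54 and -0.06 for EFNA3. By set, r was -0.22 in set 01, 0.96 in set 03 and 0.86 in set 12, and the scores of set 01 spanned only a small part of the axis. A relation of this size is common in these libraries, since 65.5% of the genes tested had a smaller r in size. TMEM54 had r = 0.36 (permutation p = 0.116, rho = 0.44 with p = 0.0511), EFNA3 0.32 (permutation p = 0.165, rho = 0.41 with p = 0.0721) and CEACAM19 0.04 (permutation p = 0.869, rho = -0.03 with p = 0.886). Only 15.1%, 13.3% and 1.55% of the genes tested had a smaller r in size than these 3 genes. With the component taken out, r of the 6 pairs was between 0.02 and 0.29.

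**Figure D5:**
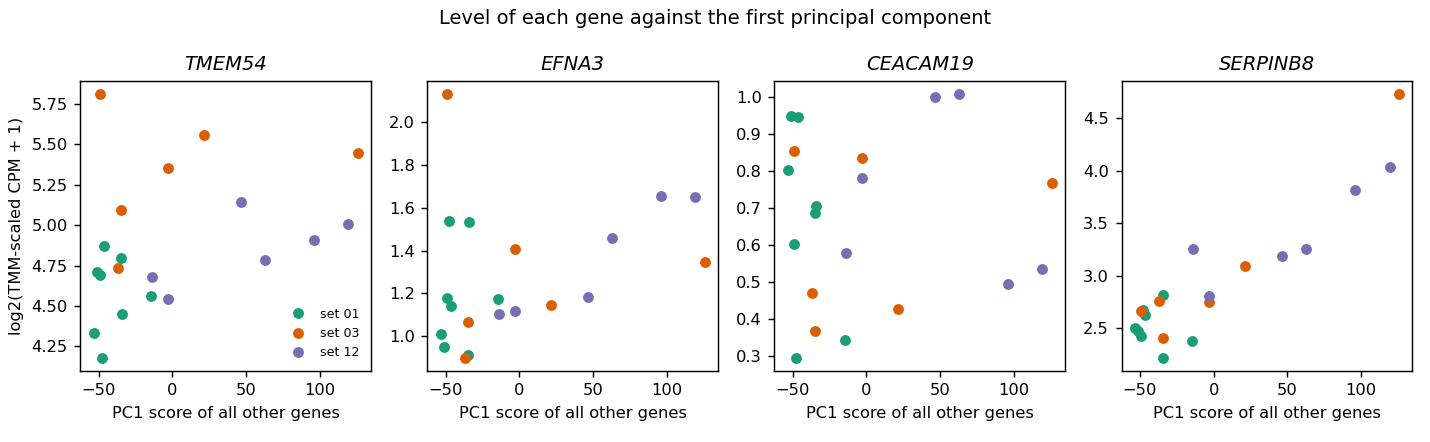
Level of each gene in log2(TMM-scaled CPM + 1) (vertical axes) against the score of its library on the first principal component of all other genes tested (horizontal axes), coloured by set. SERPINB8 rises along the component (r = 0.91), while TMEM54 (r = 0.36) has its highest libraries in set 03, at low and at high scores.

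The genes most like each of the 4 were sought among the 103 other genes tested for which the study's list pairs an identifier with a symbol, by Pearson r over the 20 libraries. Like the 4 genes, these were chosen by the study on samples of these steers. Nearest to TMEM54 were the desmosomal PKP3 (r = 0.81, rho = 0.88) and MALL, a membrane protein of the MAL family found in lipid rafts (r = 0.81, rho = 0.83). They ranked 34 and 36 among all 14292 other genes tested. MBOAT7, an enzyme that remodels membrane phospholipids, followed with r = 0.74 (rho = 0.74). Without the 2 libraries farthest from the median of TMEM54, r was 0.79 for PKP3, 0.73 for MALL and 0.75 for MBOAT7, and with values centred within sets it was 0.74, 0.80 and 0.52. The likeness of TMEM54 to PKP3 and MALL was thus also present with the differences between sets taken out.

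EFNA3 also had PKP3 (r = 0.51) and MALL (r = 0.47) as its nearest genes, followed by ETHE1, a mitochondrial enzyme of sulfide oxidation (r = 0.44). They ranked only 263, 387 and 566 among the 14292 other genes tested, of which the nearest had r = 0.751. Without the 2 libraries farthest from the median of EFNA3, r was 0.28 for PKP3, 0.14 for MALL and 0.50 for ETHE1. For SERPINB8 the nearest were ETHE1 (r = 0.93), PSMB5, a catalytic subunit of the proteasome (r = 0.93), and UBL5, a ubiquitin-like protein of splicing (r = 0.91), which ranked 68, 148 and 371. CEACAM19 had no near gene on the list. Its highest r was 0.32 with JUNB, a subunit of the transcription factor AP-1 (rank 147), and that fell to 0.17 without the 2 farthest libraries.

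A list of 12 further epithelial genes, with the 4 keratinocyte markers among them, was taken from the same source, and 8 passed the filter on low counts. The study chose these genes on these steers, so their direction is not independent evidence. None of the 8 was called between Low and High RFI (limma), their median log2 difference was -0.14 against 0.008 over all genes tested, and 1 of the 8 had a higher mean in Low RFI. Among the 3 sets, 4 of the 8 were called (54.5% over all genes tested), namely PKP3, LLGL2, RAB25 and SCNN1A (adjusted p = 0.0405, 0.012, 0.00796 and 0.0182, limma). LLGL2 is a protein of epithelial polarity and SCNN1A a subunit of the epithelial sodium channel. From set 01 to set 12, 1 of the 8 rose, RAB25 by 0.98 (adjusted p = 0.00306, limma), and none fell, against 30.9% higher and 32.1% lower over all genes tested. From set 01 to set 03 none of the 8 was called (0.518% over all genes tested). Their median log2 difference was 0.44, against -0.002 over all genes tested. RAB25 had 13.1 to 52.9 TMM-scaled CPM and the largest difference of the 8 in that comparison as well (0.89, adjusted p = 0.0526, limma).

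All 8 epithelial genes had a positive r with TMEM54, from 0.23 (S100A11) to 0.81, with a median of 0.57 against 0.00 over all genes tested. With EFNA3 all 8 were positive as well, with a median of 0.35 against 0.00 over all genes tested. SERPINB8 divided the list, with a median r of 0.44 and a range from -0.36 (SCNN1A) to 0.88 (RAB25). With CEACAM19, most of whose variance came from counting, all 8 were positive too. The median was 0.12 against -0.01 over all genes tested, and the highest r was 0.20. A positive sign in all 8 was thus not particular to TMEM54 and EFNA3. These values describe 20 libraries that share depth, scaling and the set structure, and were given no test.

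A second list held 8 genes of adherens junctions and the cytoskeleton, all of which passed the filter. None was called between Low and High RFI (limma), and the median log2 difference was 0.01. From set 01 to set 12, 4 of the 8 rose and none fell, against 30.9% higher and 32.1% lower over all genes tested. Among them were ACTB (0.78), CFL1 (0.74) and TUBA4A (0.67), which encode actin, an actin-severing factor and a tubulin (adjusted p = 0.00726, 0.00472 and 0.00537, limma). VEZT, a transmembrane protein of adherens junctions, was not called (0.13, adjusted p = 0.163, limma). From set 01 to set 03 none of the 8 was called, against 0.518% over all genes tested. The median r of these 8 genes was 0.71 with SERPINB8, 0.32 with TMEM54, 0.16 with EFNA3 and 0.04 with CEACAM19. ACTB, at 3970 to 14200 TMM-scaled CPM, had r = 0.90 with SERPINB8 and 0.39 with TMEM54.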

How the data were processed

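RNA-seq libraries of 20 steers were used, 1 per steer. The authors deposited CPM per Ensembl gene. Per the labels and Methods, reads were aligned to UMD3.1 with TopHat2 (2.0.10 in the submitters' processing notes, another version in the Methods) and counted with HTSeq-count. The labels and the Methods also name different RNA extraction reagents. Each CPM column was divided by its smallest value above 0, and 100.0% of values came out whole within 0.01. Low counts were removed with filterByExpr (minimum count 10), and limma 3.58.1 (trend) was run on log2(TMM-scaled CPM + 1) in R 4.3.3, with Benjamini-Hochberg adjustment over 14293 genes and a threshold of 0.05. Because the deposited values are CPM, edgeR 4.0.16 and DESeq2 1.42.0 on the recovered reads were alternatives, as were other scalings, a pseudocount of 0.1, no filter, the study's list of groups, the code set as covariate and left-out libraries. Correlations used 100000 permutations, or all of them within sets (Python 3.11.15, scipy 1.17.1). On simulated data of 14293 genes, limma recovered 61% of 2-fold and 88% of 3-fold changes between the RFI groups (8 false calls), and 46% and 83% among the sets (9 false calls).

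Groups came from the labels. The named genes were the 4 genes, for each the 3 most like it by r, and the fixed lists. The members and lists were chosen with earlier results of these data known. Symbols came from the study's list of genes, since 0 identifiers occur in the reference gene table (ARS-UCD assembly), so coordinates and sequences were not used here. List genes not named in the report enter its counts and medians only, and 1 called gene is not reported here by name. CEACAM19 and SERPINB8 belong to gene families, and their counts are uncertain where reads match several members of a family.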

Additional observations from a re-analysis of the deposited data

Results flagged for a closer look

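The library of steer 47, labelled High RFI, stood far above the other 5 libraries of set 03 for SERPINB8. Its gap to the next library was 0.704 of the whole range of that set on the log2(CPM + 1) scale, above Dixon's critical value of 0.625 for 6 libraries. It had 182 reads of SERPINB8, 17.6 CPM as deposited and 25.6 CPM after scaling, and it also had the lowest TMM factor (0.69) and the highest score on the first principal component (126.1). Of 16 groups of libraries checked in this way (the Low RFI steers and the 3 sets, for 4 genes), this was the only one that passed, and chance alone passes about 1 in 20. The part of RNA composition in this value was not tested.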

How the results depend on the processing

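No paired analysis was possible because each steer gave 1 library and the labels do not link steers of the Low and High RFI groups. Between Low and High RFI no gene of the 4 was called under any alternative, and TMEM54, EFNA3 and CEACAM19 kept their sign. SERPINB8 turned to 0.060 with the study's list of groups and to 0.084 without the library with the lowest TMM factor (steer 47). Among the sets, TMEM54 and SERPINB8 kept their calls in the F test under 7 alternatives of scaling, test, filter, covariate, pseudocount and library (adjusted p 0.0026 to 0.0125 and 0.00182 to 0.0464, limma or edgeR). The call of TMEM54 between sets 03 and 01 was lost with CPM as deposited and without steer 47 (adjusted p = 0.0651 and 0.0653, limma). With 1 library left out at a time, that call was lost in 8 of 20 cases. With each remaining library left out in turn (chosen after seeing the data), the difference between the sets compared was 0.776 to 1.067 for SERPINB8, and its F test was lost without 7 of them. In the same way it was 0.686 to 0.874 for TMEM54, 0.128 to 0.263 for EFNA3 and 0.047 to 0.166 for CEACAM19. Over the same cases the number of genes called among sets was 3414 to 8860, with 3414 without steer 155 and 4912 without steer 345. Without steer 47, the library with the lowest TMM factor, it was 9515.

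No correlation passed under any alternative. Signs turned in set 01 alone for TMEM54 and EFNA3 (-0.61), TMEM54 and SERPINB8 (-0.45) and EFNA3 and CEACAM19 (-0.53). With CPM as deposited they turned for TMEM54 and SERPINB8 (-0.07) and for CEACAM19 and SERPINB8 (-0.21). The latter pair was also at -0.09 without the 2 farthest libraries, -0.02 without the library with the lowest TMM factor and -0.01 centred within sets, and EFNA3 and CEACAM19 at -0.04 without the 2 farthest. Leaving out 1 library gave -0.11 to 0.13 for EFNA3 and CEACAM19, -0.03 to 0.11 for CEACAM19 and SERPINB8, 0.06 to 0.5 for TMEM54 and EFNA3, 0.05 to 0.33 for TMEM54 and CEACAM19, 0.2 to 0.48 for TMEM54 and SERPINB8, and 0.29 to 0.57 for EFNA3 and SERPINB8. Standard deviations moved with a pseudocount of 0.1 to 0.474 for EFNA3 and 0.547 for CEACAM19, and with CPM as deposited to 0.468 for SERPINB8. The causes were not tested. Depth limits CEACAM19 (3 to 14 reads) and EFNA3 (9 to 46 reads).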
